A study of Nicotiana tabacum with 6 samples.

Results

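Lipid transfer protein genes were examined in tobacco (Nicotiana tabacum, variety NC82), in young leaves of seedlings that had all spent 24 h at 4 °C. The 6 RNA-seq libraries were 3 from plants overexpressing the gene NtPhyA and 3 from wild-type plants of the same variety. The promoter of the transgene and the number of transgenic lines or pooled plants are not stated in the labels, and no label says that replicates came from separate plants, so p-values speak to the variation among these 6 libraries alone, and that variation may be technical. Both materials were chilled, so the response to cold itself was not measured. The genes were chosen by their description: of 69500 gene models, 215 are described with the words lipid transfer protein, and the 52 of them with a mean normalized abundance of at least 1 over the 6 libraries are the members described below. Their levels therefore entered the choice, as a mean over both plant materials. The difference between the materials was not itself a criterion, but it can move that mean across the limit. Of the members, 2 had a mean below 1 in 1 of the materials. Among the described models left out, 4 had a mean of at least 1 in 1 of the materials. The list was also chosen with earlier results of these data known.

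Non-specific lipid transfer proteins are small secreted proteins of land plants in which conserved cysteines, joined by disulfide bridges, hold a bundle of helices around a greasy pocket. They bind fatty acids and other lipids, and in leaves many are made by the epidermis, where they are thought to help carry cutin and wax components to the cuticle. In barley, transcripts of lipid transfer protein genes accumulate in the cold, and in several plants family members take part in defence. The helical domain itself is shared with seed storage albumins and with inhibitors of trypsin and alpha-amylase, so a domain description alone does not show lipid transfer.

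The values are normalized abundances as deposited, without a stated unit, and levels of genes are compared on that scale. How a level would change if they were not scaled for gene length cannot be told from the files. Library totals lay between 440137 (overexpression replicate 3) and 568208 (wild-type replicate 3), while read totals are not stated. From the spacing of the lowest values, the relative depth of the libraries differed by about 1.32-fold at most. The estimate was lowest in replicate 3 of both materials, at 0.826 in each, against 0.917 to 1.09 in the other libraries. Markers of leaf mesophyll were abundant in every library. The 71 expressed models of chlorophyll a/b-binding proteins and Rubisco small subunits summed to 29163, 15735 and 8238 in the wild-type libraries, in the order of replicate number. The overexpression libraries gave 38495, 23748 and 13863. They differed by more between replicates of one material than between the materials, with groups that overlapped. Of these 71 models, 59 had a higher estimate under overexpression (83.1%, against 48.3% of all tested models), with a median log2 difference of 0.41, and none was called. Of the photoreceptor family overexpressed here, 5 models carry a phytochrome A/B/C/D/E description, and together they summed to 1.33 to 2.83 in wild type against 1.15 to 2.86 under overexpression. The ranges overlapped, so the values show no rise of these models and do not show the overexpression that the labels state. No label ties a model to the transgene, and overexpression below means the label. The genes carry no symbol in the files and are named by model identifier.

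By description the 52 members fell into 4 classes and 1 single model. The first class, with 21 members, combines the helical domain with the plant lipid transfer protein/Par allergen signature, named after a pollen allergen of the weed Parietaria, and holds the classical lipid transfer proteins. The second, with 15 members, has the helical domain alone. The third, with 11 members, adds a hydrophobic seed protein domain, which is named after a soybean seed protein and is also found in hybrid proline-rich proteins of the cell wall. The fourth, with 4 members, is described as glycolipid transfer protein, an unrelated family inside the cell that moves sphingolipids between membranes, and it matched only through the letters of its name. The single model, Nitab4.5_0003461g0020, carries both the helical domain and the proteasome maturation factor UMP1, an assembly chaperone of the proteasome. The label therefore fits the first class, is possible for the helical domain and hydrophobic seed protein classes, and does not describe the glycolipid transfer models.

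The members together held 0.877%, 0.631% and 1.07% of the summed abundance in the wild-type libraries, taken in the order of replicate number here and below. In the overexpression libraries they held 0.868%, 0.792% and 0.477%. As group values this was 0.858 ± 0.218% in wild type against 0.712 ± 0.207% under overexpression (SD, n = 3 each). The groups overlapped: overexpression replicate 3 was the lowest of all 6 libraries, wild-type replicate 3 the highest, and wild-type replicate 2 lay below the other two overexpression libraries. In bulk leaves, fewer cells of a type and less RNA per cell cannot be told apart. Levels were very uneven among members: 7 had a mean of 100 or more, 25 between 10 and 100, and 20 below 10. The 2 most abundant, both of the Par allergen class, made up 47.9 ± 7.5% of the member sum in wild type against 41.0 ± 5.5% under overexpression (SD, n = 3 each).

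**Figure D1:**
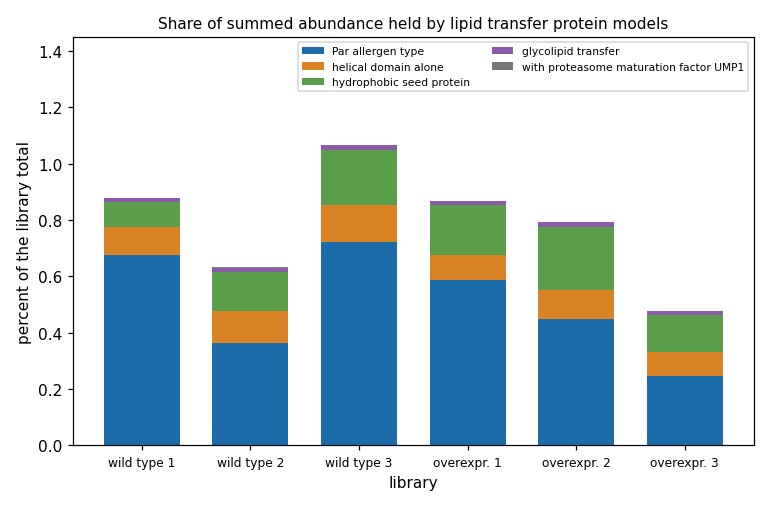
Bars show, for each of the 6 libraries, the percent of the library's summed abundance held by the 52 members, stacked by class. The share runs from 0.477% in overexpression replicate 3 to 1.07% in wild-type replicate 3, and the Par allergen class (bottom of each bar) makes up more of it than any other class in every library.

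Between the plant materials, no member passed the threshold. Of the 52 members, 37 had a lower and 15 a higher estimate under overexpression, with a median log2 difference of -0.16, against -0.01 over all 17962 models tested. The test was limma on log2(value + 1), two-sided, with Benjamini-Hochberg adjustment over all tested models and a threshold of 0.05; every member had an adjusted p of 0.999. Over all tested models 0.00557% were called. At an unadjusted p below 0.05 there were 6 members, 11.5% of them, against 2.82% of all tested models, and 5 of the 6 were lower. Over all tested models 1.35% reached that p with a lower and 1.47% with a higher estimate. The 95% confidence intervals of single members reached a median of 1.04 log2 units to each side of the estimate (range 0.60 to 3.12). Those of 6 members excluded 0, without adjustment for the number of models tested. The intervals of the other members left room for a difference in either direction.

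The leaning toward lower values reversed without overexpression replicate 3 and weakened without wild-type replicate 3. Without overexpression replicate 3, only 20 of the 52 members were lower and 32 higher, and the median log2 difference turned to 0.09. Without wild-type replicate 3, 32 members were lower and the median was -0.07. Without any of the other libraries, 35 to 41 members were lower. The difference in summed abundance between the group means, -1047, shrank to -463 without overexpression replicate 3 and to -175 without wild-type replicate 3. When both replicates numbered 3 were left out, an alternative added after the data were seen, 17 members were lower and 35 higher, with a median of 0.17. Scaling each library to the same sum gave 32 lower and 20 higher, and scaling by the median ratio gave 36 and 16. The median over all tested models moved up as well under these scalings. It was 0.07 with the same sum, against -0.07 for the members, and 0.02 with the median ratio, against -0.13. When 1 library was left out, the median over all tested models lay between -0.04 and 0.03, and without both replicates numbered 3 it was 0.04.

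The classes differed in their counts. In the Par allergen class 18 of 21 members had a lower estimate (median log2 difference -0.43), in the helical domain class 11 of 15 (median -0.27), and all 4 glycolipid transfer models did (median -0.17). In the hydrophobic seed protein class 8 of 11 had a higher estimate (median 0.18). No member of any class was called, and the difference between the classes was not tested. Without overexpression replicate 3 the Par allergen class turned to 9 lower and 12 higher (median 0.19) and the helical domain class to 7 lower and 8 higher. Without wild-type replicate 3 the Par allergen class stayed at 15 lower and 6 higher (median -0.41). The helical domain class then had 9 lower and 6 higher (median -0.02). Without overexpression replicate 1 the hydrophobic seed protein class turned to 7 lower and 4 higher (median -0.16).

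**Figure D2:**
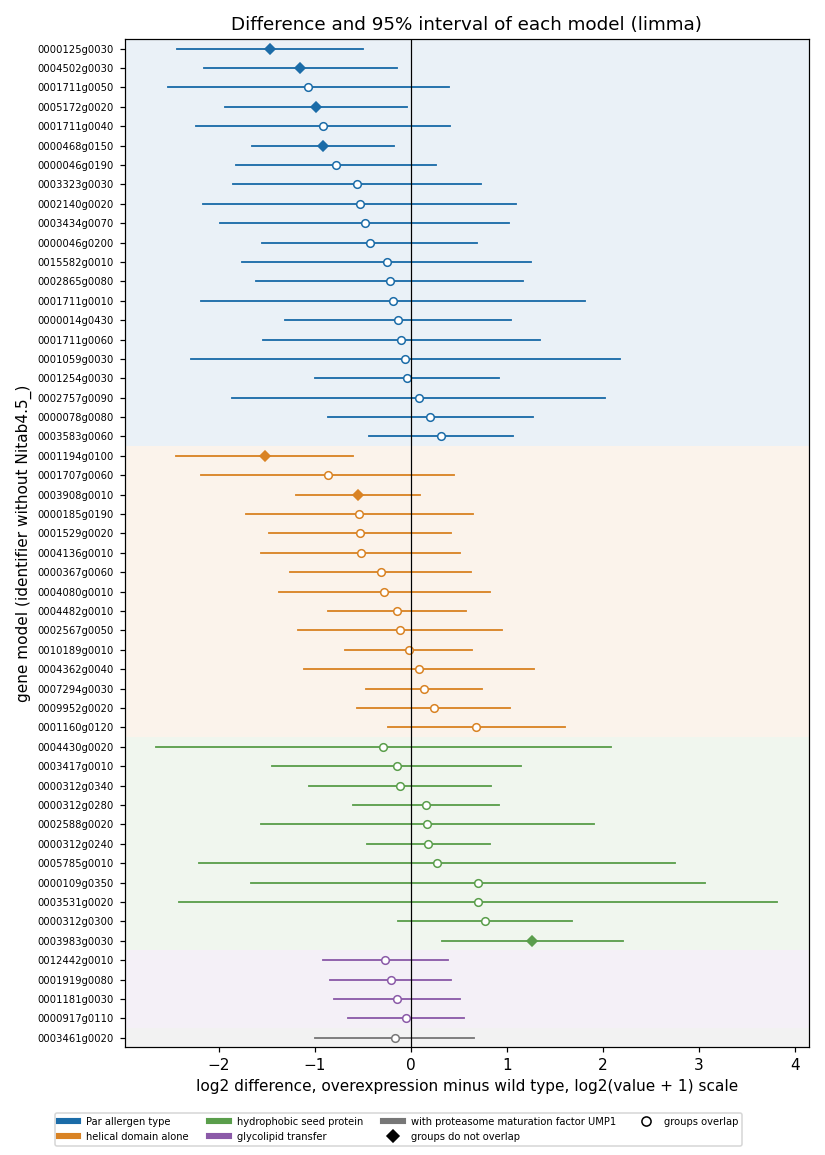
Each row is 1 of the 52 members, grouped by class (colour). The point is the difference in log2(value + 1) between overexpression and wild type (below 0, lower under overexpression), and the line its 95% confidence interval from limma. Filled diamonds mark the 7 members whose groups do not overlap, and most intervals span 0.

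In 7 members the 3 values of one material did not overlap with those of the other, 6 lower and 1 higher under overexpression. This is 13.5% of the members against 7.87% of all tested models, for the lower direction 11.5% against 3.86%, and for the higher direction 1.92% against 4.01%. Scaling by the median ratio left 5 of these 7, all lower (9.62% of the members, against 8.47% of all tested models). Scaling to the same sum left 5 of them and added 2 others, which gave 4 lower and 3 higher (13.5%, against 8.24%). The members are described next by class, with those of highest mean first.

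The most abundant member, Nitab4.5_0000046g0200 of the Par allergen class, ranked number 24 by mean among all models. It was at 1376, 797 and 1509 in the wild-type libraries, against 1459, 913 and 510.5 in the overexpression libraries. Wild-type replicates 1 and 3 and overexpression replicate 1 were alike high, and only overexpression replicate 3 fell outside the wild-type range. Its log2 difference was -0.43 ± 0.48 (SE), with a 95% confidence interval from -1.54 to 0.69, and it was -0.036 without overexpression replicate 3 and -0.79 without overexpression replicate 1. The second, Nitab4.5_0001711g0040, was at 836, 341 and 1452 in wild type against 494, 469 and 266 under overexpression. The wild-type libraries alone spanned more than 4-fold here, and wild-type replicate 2 lay below 2 of the 3 overexpression libraries. The log2 difference was -0.91 ± 0.56 (SE), and it was -0.43 without wild-type replicate 3 and -1.48 without wild-type replicate 2. Nitab4.5_0015582g0010 was at 183, 90.2 and 255 in wild type against 281, 157 and 56.3 under overexpression, with both extremes in overexpression libraries.

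Nitab4.5_0000046g0190 was at 198, 103 and 295 in wild type against 107, 144 and 76.7 under overexpression, with a log2 difference of -0.78 ± 0.44 (SE) that became -0.43 without wild-type replicate 3 and -1.19 without wild-type replicate 2. Its groups overlapped through wild-type replicate 2. Nitab4.5_0003323g0030 was at 133, 70.5 and 111 in wild type against 125, 86.6 and 29.2 under overexpression, where replicate 3 alone stood below the wild-type values. Nitab4.5_0001711g0050 was at 41.7, 25.4 and 131 against 15.0, 38.8 and 24.5. Wild-type replicate 3 held 47.5% of its 6-library sum, and the other wild-type values lay near those of the overexpression libraries. Its log2 difference of -1.07 ± 0.62 (SE) became -0.41 without that library and -1.57 without wild-type replicate 2.

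Of the Par allergen members, 4 had groups that did not overlap, all lower under overexpression. Nitab4.5_0000125g0030 was at 13.1, 7.96 and 10.4 in wild type against 5.34, 3.61 and 1.32 under overexpression, so every wild-type library stood above every overexpression library. Its log2 difference was -1.47 ± 0.41 (SE; unadjusted p = 0.00865, limma adjusted p = 0.999). Nitab4.5_0004502g0030 was at 23.2, 13.8 and 10.7 in wild type against 9.90, 7.08 and 3.38 under overexpression, a log2 difference of -1.15 ± 0.43 (SE). The gap between its groups was narrow, from 9.90 to 10.7. Nitab4.5_0005172g0020 was at 65.0, 81.8 and 159 against 33.6, 52.05 and 59.9, a log2 difference of -0.99 ± 0.40 (SE), again with a narrow gap. It became -0.62 without wild-type replicate 3. The fourth, Nitab4.5_0000468g0150, had a mean below 5 and was picked after its values were seen; it was at 3.21, 6.38 and 3.29 against 1.83, 2.08 and 1.30. In these 4 the adjusted p was 0.999, like that of all members.

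The other 11 Par allergen members had means from 1.60 to 81.8, and log2 differences from -0.53 in Nitab4.5_0002140g0020 to 0.32 in Nitab4.5_0003583g0060. All 11 overlapped between the groups. Some varied far more between replicates than between materials: Nitab4.5_0001059g0030 was at 18.0, 1.01 and 3.41 in wild type against 14.6, 2.98 and 1.43 under overexpression, with replicate 1 the highest in both.

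**Figure D3:**
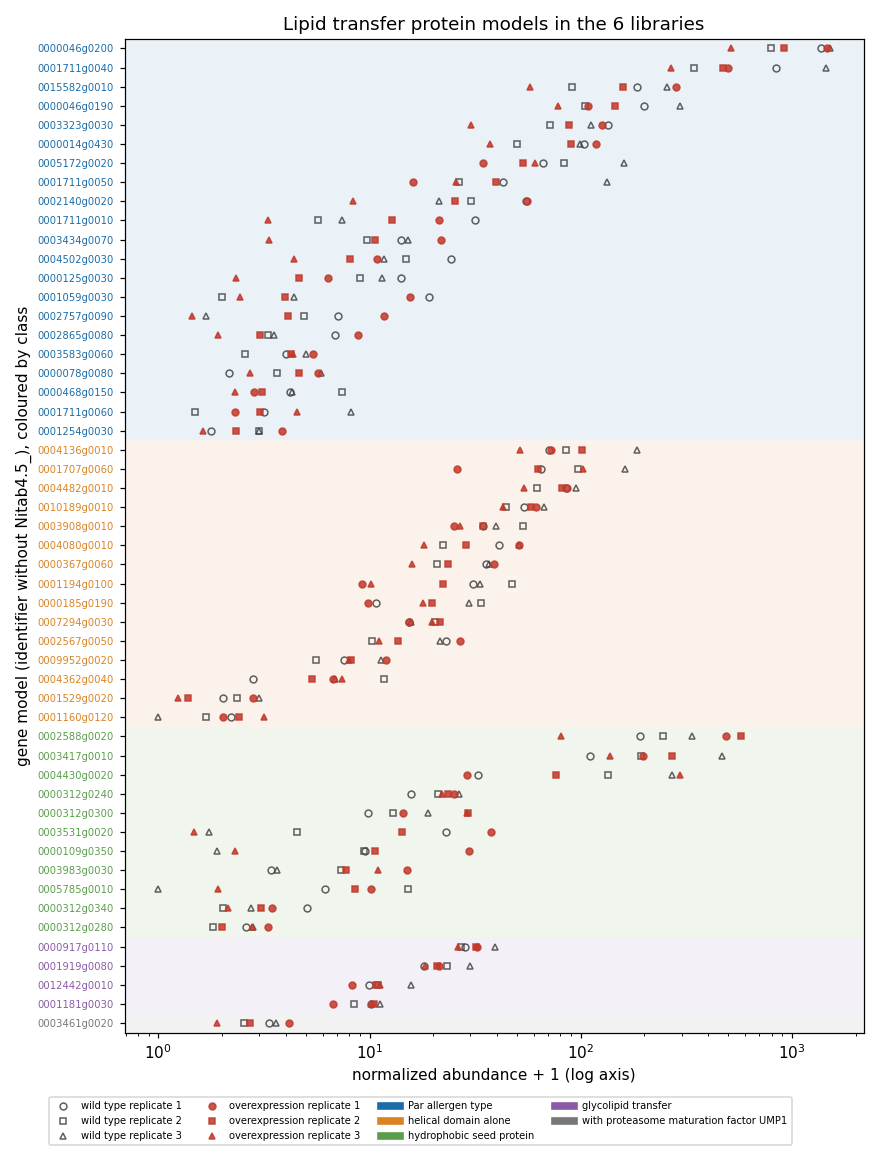
Each row is 1 of the 52 members, grouped by class and ordered by mean. Points give the normalized abundance plus 1 in each library on a log axis (open grey, wild type; filled red, overexpression; symbol shape, replicate number). In most rows open and filled points are mixed, and filled triangles, overexpression replicate 3, lie at the left end of many Par allergen rows.

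The highest mean in the helical domain class was 93.0, below the highest of the Par allergen and hydrophobic seed protein classes. The median of its member means, 24.5, was above those of the Par allergen (11.4), hydrophobic seed protein (12.8) and glycolipid transfer (15.5) classes. Nitab4.5_0004136g0010 was at 69.5, 83.7 and 184 in wild type against 70.9, 99.9 and 50.5 under overexpression. Its groups overlapped, and wild-type replicate 3 stood apart at the top; without it the log2 difference of -0.52 became -0.10. Nitab4.5_0001707g0060 was at 63.5, 95.7 and 160 against 24.9, 62.0 and 101, a log2 difference of -0.86 ± 0.56 (SE) that became -0.32 without overexpression replicate 1 and -1.31 without overexpression replicate 3. The groups overlapped, since overexpression replicate 3 lay above wild-type replicates 1 and 2.

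The member with the smallest unadjusted p belonged to this class. Nitab4.5_0001194g0100 was at 29.8, 46.4 and 32.4 in wild type against 8.20, 21.1 and 9.14 under overexpression, with every wild-type value above every overexpression value. Its log2 difference was -1.52 ± 0.39 (SE), with a 95% confidence interval from -2.44 to -0.60 (unadjusted p = 0.0057, limma adjusted p = 0.999). Nitab4.5_0003908g0010 was at 33.5, 52.1 and 38.6 against 24.1, 33.4 and 25.8, and its groups were separated by a gap of less than 0.1. Its log2 difference was -0.55 ± 0.27 (SE).

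On the higher side, Nitab4.5_0009952g0020 was at 6.54, 4.6 and 10.4 in wild type against 11.0, 7.17 and 7.03 under overexpression. Nitab4.5_0007294g0030 was at 14.4, 19.4 and 14.6 against 14.4, 20.5 and 18.7. Both overlapped widely, with log2 differences of 0.24 ± 0.34 and 0.14 ± 0.26 (SE), the latter 0.037 without overexpression replicate 2. Nitab4.5_0010189g0010, picked after its values were seen, was at 52.6, 43.0 and 66.2 in wild type against 60.5, 56.9 and 41.6 under overexpression. Its difference was -0.02 ± 0.28 (SE) log2 units, with a 95% confidence interval from -0.68 to 0.64.

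The hydrophobic seed protein class held 3 of the 10 most abundant members and spread widely between replicates, with a median SD of 0.67 log2 units in wild type against 0.58 under overexpression. Nitab4.5_0002588g0020 was at 189, 244 and 336 in wild type against 483, 575 and 79.8 under overexpression. The overexpression libraries thus held both the 2 highest values and the lowest one, and the log2 difference was 0.17 ± 0.74 (SE). Nitab4.5_0003417g0010 was at 109, 192 and 464 against 197, 268 and 136. Nitab4.5_0004430g0020 was at 31.5, 133 and 268 against 28.0, 74.97 and 292, with replicate 1 the lowest and replicate 3 the highest in both materials. Its 95% confidence interval ran from -2.65 to 2.08, so a difference of 4-fold either way lay within it.

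The 1 member that stood higher under overexpression without overlap was Nitab4.5_0003983g0030 of this class. It was at 2.41, 6.33 and 2.64 in wild type against 14.0, 6.71 and 10.01 under overexpression, so only 6.33 and 6.71 separated the groups. Its log2 difference was 1.27 ± 0.40 (SE), with a 95% confidence interval from 0.33 to 2.21 (unadjusted p = 0.0151, limma adjusted p = 0.999), and its groups overlapped once libraries were scaled by the median ratio. Nitab4.5_0000312g0300 was at 8.87, 11.97 and 17.9 against 13.4, 28.1 and 27.9, and Nitab4.5_0000312g0240 at 14.7, 20.2 and 25.6 against 24.1, 22.5 and 21.0. In both, wild-type values reached into the overexpression range, and the log2 differences were 0.78 ± 0.38 and 0.18 ± 0.27 (SE).

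In 2 members of this class a single library carried a large share of the summed values. Nitab4.5_0003531g0020 was at 22.1, 3.55 and 0.74 in wild type against 36.5, 13.2 and 0.48 under overexpression, with 47.7% of its 6-library sum in overexpression replicate 1. Nitab4.5_0000109g0350 was at 8.49, 8.40 and 0.89 against 28.6, 9.61 and 1.30, with 49.9% in the same library. Both were at 1.30 or less in both replicates numbered 3. Nitab4.5_0005785g0010 was at 5.17, 14.2 and 0 against 9.17, 7.49 and 0.91, with the same 2 libraries lowest. In these 3 the log2 differences were 0.70 ± 1.33, 0.70 ± 1.01 and 0.27 ± 1.05 (SE), and all 3 became negative without wild-type replicate 3 or without overexpression replicate 1.

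The 4 glycolipid transfer models varied least. Nitab4.5_0000917g0110 was at 27.2, 26.1 and 38.2 in wild type against 31.4, 31.0 and 25.1 under overexpression, a log2 difference of -0.05 ± 0.26 (SE). All 4 were highest in wild-type replicate 3, and their sum was 73.3 ± 16.1 in wild type against 65.4 ± 4.2 under overexpression (SD, n = 3 each). The UMP1 model was at 2.34, 1.54 and 2.59 against 3.16, 1.72 and 0.90.

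Many members were high or low in the same library. Overexpression replicate 3 was the lowest of the 3 overexpression libraries in 35 of 52 members (67.3%), against 50.5% of all tested models, and the lowest of all 6 libraries in 25 members (48.1%), against 28.0%. In the Par allergen class it was the lowest of 6 in 15 of 21 members. Wild-type replicate 3 was the highest of the wild-type libraries in 29 members (55.8%), against 41.7% of all tested models, and it was the lowest in 7. The libraries with the same number therefore stood at opposite ends for many members, while the marker sum of chlorophyll-binding proteins and Rubisco small subunits given above was lowest in replicate 3 of each material. The 20 expressed terpene synthases, markers of glandular trichomes on the leaf surface, summed to 1043 in overexpression replicate 3 and to 315 to 604 in the other 5 libraries. Wild-type replicate 3, at 447, was neither the highest nor the lowest wild-type library for this sum. Core histones, markers of dividing cells, leaned toward higher values under overexpression: 63 of 78 tested models had a higher estimate (median log2 difference 0.40), and none was called. At an unadjusted p below 0.05 there were 10 of them, all higher (12.8%, against 1.47% of all tested models), and 16 had groups without overlap, all higher (20.5%, against 4.01%). Their sum overlapped between the groups. The part of the markers, of depth and of the single libraries in the member values was not tested.

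The Par allergen class summed to 3109.9, 1643 and 4100.3 in wild type against 2791, 2026 and 1089.8 under overexpression, the hydrophobic seed protein class to 397, 636 and 1119.9 against 838.5, 1008 and 573, and the helical domain class to 465, 502 and 743 against 429, 469 and 374. As a share of the member sum, the Par allergen class held 67.5 ± 9.7% in wild type against 58.7 ± 8.1% under overexpression. The hydrophobic seed protein class held 16.9 ± 6.4% and 25.3 ± 4.3% (SD, n = 3 each), with the groups overlapping in both. Within wild type, the hydrophobic seed protein sum was lowest in replicate 1 and the Par allergen sum in replicate 2.

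**Figure D4:**
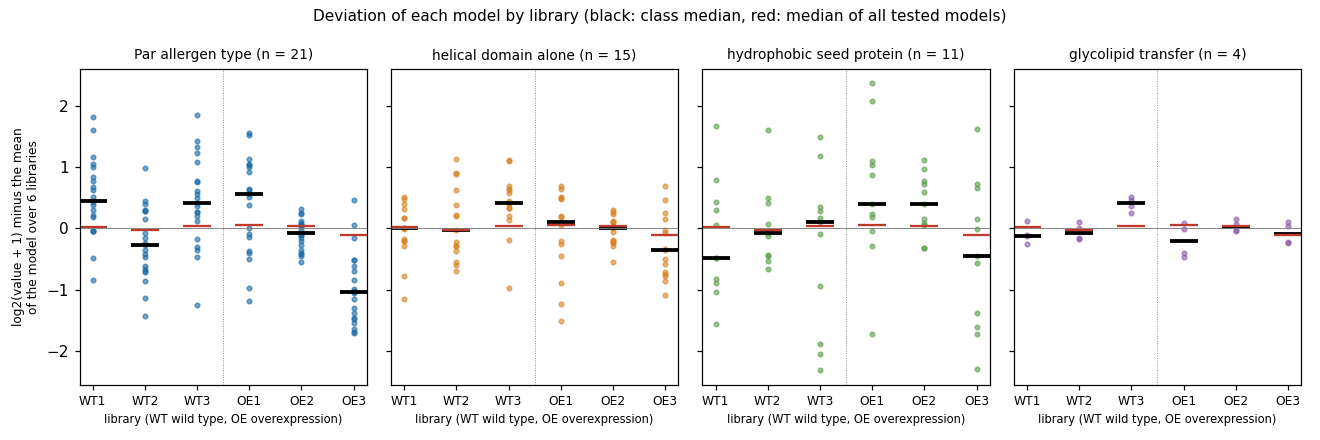
Each point is 1 member of the 4 classes in 1 library, as log2(value + 1) minus its mean over the 6 libraries; black bars are class medians and red bars the median of all 17962 tested models. The Par allergen median lies at -1.04 in overexpression replicate 3, where the median of all tested models is -0.11.

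Several members share the first number of their identifier and differ only in the number after the g. Their positions are not in the files. They make up 10 of the 52 members in 3 groups. The Par allergen models Nitab4.5_0001711g0010, Nitab4.5_0001711g0040, Nitab4.5_0001711g0050 and Nitab4.5_0001711g0060 had means of 12.7, 643, 46.1 and 2.78, so models close in number differed widely in level. The last 3 were highest in wild-type replicate 3, while Nitab4.5_0001711g0010 was highest in wild-type replicate 1, at 30.4, 4.69 and 6.44 in wild type against 20.4, 11.8 and 2.31. The hydrophobic seed protein models Nitab4.5_0000312g0240, Nitab4.5_0000312g0280, Nitab4.5_0000312g0300 and Nitab4.5_0000312g0340 had means of 21.3, 1.56, 18.0 and 2.08. The pair Nitab4.5_0000046g0190 and Nitab4.5_0000046g0200 had means of 154 and 1094. Close copies can share reads, and how the authors' counting divided them is not stated in the labels, so levels of single copies are uncertain.

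The other 163 described models lay below a mean of 1. Of these, 89 were listed at 0 in all 6 libraries and 74 had some signal, of which 4 had a mean of at least 1 in one plant material. Members made up 21 of 80 described models in the Par allergen class, 15 of 81 in the helical domain class, 11 of 43 in the hydrophobic seed protein class and 4 of 10 glycolipid transfer models. Just inside the limit were Nitab4.5_0001160g0120 (mean 1.09), Nitab4.5_0001529g0020 (1.14) and Nitab4.5_0000312g0280 (1.56), and just outside were Nitab4.5_0000859g0300 (0.925), Nitab4.5_0004734g0010 (0.840) and Nitab4.5_0000860g0060 (0.783). All described models together summed to 4329.8 ± 1623 in wild type against 3286 ± 1050.0 under overexpression (SD, n = 3 each), so the models below the limit added little to the members' 4314 ± 1623 and 3267 ± 1048.

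Genes of cuticle formation and of other lipid carriers gave no call either. Of 45 tested models in the list of cuticle and wax synthesis, which holds enzymes that elongate, reduce and hydroxylate very long fatty acids beside other fatty acid hydroxylases, 31 had a higher and 14 a lower estimate (median log2 difference 0.26). GDSL lipases, a family that includes cutin synthases, split 22 higher and 24 lower of 46 (median -0.02). ABC transporters of type G, some of which export wax, split 11 and 7 of 18 (median 0.14). The 98 models of other lipid carriers (START, SEC14, oxysterol-binding, acyl-CoA-binding and MD-2-related domains, some in homeobox factors) split 48 and 50 (median -0.03). Among thionins, defensins and gibberellin-regulated proteins, cysteine-rich secreted peptides like the lipid transfer proteins, 8 of 13 had a higher and 5 a lower estimate. The only model worded with a hyphen or a related domain name outside the rule lay below the limit of 1. In these lists the smallest limma adjusted p was 0.999. The median of the cuticle list was thus above that of all tested models while that of the lipid transfer proteins was below it, and the difference between the lists was not tested.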

How the data were processed

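Per the labels' protocols, total RNA was made into paired-end TruSeq libraries. HISAT2, StringTie and RSEM are named in the submitters' processing notes; their roles and versions and the genome build are not stated. The authors deposited 1 table per plant material with a normalized abundance per gene model, whose unit is not stated. Levels across the tables assume comparable scaling. The authors' group means were not used.

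Values were transformed to log2(value + 1), and 17962 models with a mean of at least 1 entered a limma 3.58.1 fit under R 4.3.3 (trend and robust options, group as the only term), checked on simulated data. Fold differences on this scale understate changes of low genes. Members and lists were chosen with earlier results of these data known. Text patterns on the descriptions formed the lists. In the cysteine-rich list, 82 of 95 tested matches were methionine or cystathionine enzymes, which were left out after the data were seen. Members were named by the 10 highest means, the 8 smallest unadjusted p in each direction and absence of overlap at a mean of at least 5, the 3 largest shares of 1 library and the 3 nearest to the limit on each side; others are said to be picked later. Alternatives were another pseudocount, other filters, 2 scalings, a replicate block and leaving out each library.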

Additional observations from a re-analysis of the deposited data

How the results depend on the processing

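No member was called under any alternative tried, with a smallest adjusted p over the members between 0.705 and 1. Over all tested models the count of 1 became 0 with a pseudocount of 0.1, without the filter, with either scaling, with the replicate block, without any 1 library (range 0 to 0) and without both replicates numbered 3, and stayed 1 where 3 libraries had to reach 1. The median log2 difference of the members ranged from -0.35 to 0.09 when 1 library was left out, and was 0.17 without both replicates numbered 3. Leaving out 1 library gave 8 to 11 members with no overlap (15.4% to 21.2%; 7 with all libraries), against 13.6% to 20.8% of all tested models, so most of these counts lay near that share, and without overexpression replicate 3 the 10 members (19.2%) lay below its 20.8%. Without the filter 12 of 126 described models had none (9.52%, against 6.76%), and without both replicates numbered 3 it was 18 members (34.6%, against 30.3%). The difference in summed abundance, -1047, lay between -1779.8 (without wild-type replicate 2) and -175 (without wild-type replicate 3), and was 409 without both replicates numbered 3. It was -693 with each library scaled to the same sum and -931 with scaling by the median ratio.

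Of the 24 members named at a mean of at least 5, 12 turned sign under some alternative, and in 18 leaving out 1 library turned the sign (10) or moved the log2 difference by over 1.5 times (8). Without 1 library the log2 difference ranged from -0.34 to 1.08 in Nitab4.5_0002588g0020, -0.015 to 0.37 in Nitab4.5_0000312g0240, -0.0037 to 0.51 in Nitab4.5_0009952g0020, -0.63 to 0.41 in Nitab4.5_0003417g0010, -0.77 to 0.38 in Nitab4.5_0015582g0010, -1.17 to 0.50 in Nitab4.5_0004430g0020, -0.16 to 1.68 in Nitab4.5_0000109g0350, -0.31 to 2.02 in Nitab4.5_0003531g0020, -0.82 to 1.14 in Nitab4.5_0005785g0010 and -0.996 to 0.037 in Nitab4.5_0003323g0030. Without both replicates numbered 3 it was 0.14 in Nitab4.5_0000046g0200, 0.66 in Nitab4.5_0003417g0010, 0.71 in Nitab4.5_0015582g0010, 0.14 in Nitab4.5_0004136g0010, 0.10 in Nitab4.5_0003323g0030 and -0.060 in Nitab4.5_0005785g0010. The cause was not tested. Same-numbered libraries deviated together for replicates 1 and 3 (correlation across genes, which are not independent replicates, 0.56 and 0.42) and not for replicates 2 (-0.11). Wild-type replicate 1 and overexpression replicate 3 deviated oppositely (-0.58), as did wild-type replicate 3 and overexpression replicate 1 (-0.44). No pairing is stated in the labels, so the number was not taken as a pairing. Whether libraries with the same number share an effect was not tested. With the replicate block no member was called. The block cannot change the estimates or their median of -0.16, since each number holds 1 library of each material. It can change the p-values, and these moved both ways. The unadjusted limma p went from 0.0057 to 0.00093 in Nitab4.5_0001194g0100 and from 0.0151 to 0.0255 in Nitab4.5_0003983g0030. The pseudocount and the block do not apply to sums and overlap. Read depth per model is unknown, so no counting error can be given for low values.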

Other observations

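On the log2(value + 1) scale, members varied more between replicates than the tested models at large. They also stood at higher levels, with a median mean of 16.9 against 6.1. This scale compresses low values, and the spread was not compared at matched levels. The median SD of log2(value + 1) over the 3 libraries of a material was 0.58 in wild type and 0.57 under overexpression for the 52 members, against 0.40 and 0.38 for all 17962 tested models. The Par allergen class reached 0.66 and 0.74 and the glycolipid transfer models 0.32 and 0.20. Replicate 1 was the highest library in both materials in 13 of 52 members, a share near the 24.0% found over all tested models. The classes were uneven in this, with 9 of 21 members (42.9%) in the Par allergen class.

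Lists for other cell types of the leaf were looked at beside the members. Core histones, whose counts are given above, summed to 2233 to 2941 in wild type and 2661 to 4054 under overexpression, phloem proteins to 263 to 782 and 402 to 567, and laccases and cellulose synthases to 44.8 to 115 and 87.3 to 195. A higher estimate was found in 12 of 13 laccases and cellulose synthases (median log2 difference 0.52) and in 16 of 20 terpene synthases (median 0.53). Among phloem proteins it was 10 of 29 (median -0.15), and over all tested models 48.3%. The list meant for pollen and anther matched expansins in 22 of its 39 tested models and does not stand for those tissues. No model of these lists was called by limma.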
